A study of Mus musculus with 1024 samples.

Results

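The collagen chain genes were taken as every gene row whose symbol is Col, a number, the letter a and a number, which gave 44 of the 24422 gene rows of the count table. By the molecule their protein joins, 11 were classed as fibrillar, 8 as basement membrane and 25 as other collagens. They were described in aortic cells of mice aged 3 months on a C57BL/6 background, sequenced with Smart-seq2, which reads the polyadenylated RNA of 1 sorted cell in each well along its full length. The strain label, the same for all wells, joins a floxed Amotl2 allele (written Amotl2flow/flow), a tamoxifen-inducible Cre under the endothelial Cdh5 promoter and a ROSA26-EYFP reporter. WT (amotl2 ec+/ec+) and KO (amotl2 ec-/ec-) wells were labelled Endothelial (Cd31+Cd45-) or DoubleNegative (Cd31-Cd45-). The cells came from 6 mice per genotype, pooled over 2 sorts, and no well is tied to 1 mouse. The counts of each genotype, label and sort were therefore summed into 8 samples, so that each genotype and label had 2 replicates. In tests of genotype, p-values measure the spread between sorts. In tests of sort they measure the spread between genotypes, and in tests of label the spread over genotypes and sorts.

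A collagen molecule is wound from chains that are each encoded by a gene of their own. Fibrillar collagens of types I, III and V assemble into the fibres that give the vessel wall its tensile strength. Type IV collagen is the sheet-forming collagen of basement membranes, on which endothelial cells (ECs) rest and which surrounds each smooth muscle cell. Its chains occur in fixed combinations, Col4a1 with Col4a2, Col4a3 with Col4a4 and Col4a5, and Col4a5 with Col4a6. Types XV and XVIII bind basement membranes to the matrix around them and release endostatin-type fragments. Type VI forms beaded filaments, type VIII is a short-chain collagen of vessels, type XIV sits on fibril surfaces and type XXIII is anchored in the cell membrane.

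Wells with at least 20000 gene counts and 500 genes were kept, 784 of 1024 in all, of which 676 were Endothelial and 108 DoubleNegative. Gene counts per sample ranged from 8470943 to 94881185 over the 4 Endothelial samples and from 926398 to 9435015 over the 4 DoubleNegative samples, where sort 2 was the shallower in both genotypes and gave 14 KO and 12 WT wells. The sort 1 wells of WT and of KO lay on different plates, and effects of plate and of genotype cannot be told apart in sort 1. Levels are in CPM, counts per 1000000 gene counts of the sample. Amotl2 stood at 59.9, 94.0, 51.9 and 45.7 CPM in Endothelial wells of WT sort 1, WT sort 2, KO sort 1 and KO sort 2. The groups did not overlap, but KO was not at 0, edgeR's quasi-likelihood test did not call the gene (log2 difference -0.66 ± 0.32 SE, adjusted p = 0.9995), and counts over the whole gene do not show a deleted exon. EYFP stood at 2.38, 0.353, 113 and 85.5 CPM in the same order and had no count in DoubleNegative wells. Clustering without the collagen genes put 659 of the 676 Endothelial wells into endothelial-like clusters, 15 into a smooth muscle-like and 2 into a fibroblast-like cluster. Of the 108 DoubleNegative wells, 70 were smooth muscle-like, 37 fibroblast-like and 1 endothelial-like. The fibroblast-like wells were 26 of 42 in WT sort 1, 9 of 40 in KO sort 1, 1 of 12 in WT sort 2 and 1 of 14 in KO sort 2. The 10 endothelial markers together stood at 17988 to 21082 CPM in Endothelial samples and 84.2 to 924 CPM in DoubleNegative samples, with the highest in WT sort 2. Leukocyte markers stayed at or below 4.66 CPM throughout, with Lyz2 and Cd3e at 0 everywhere. One set of 154 endothelial-like wells, led by the antigen-presenting genes Cd74, H2-Eb1 and H2-Ab1, came from WT sort 1 alone.

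The genomic stretches before the starts of the 3 members called higher in Endothelial wells, Col4a3, Col8a1 and Col23a1, are shown here. The calls served only to pick the stretches. The stretch before Col4a3 is also that of Col4a4, which was not called, since these type IV genes lie back to back. In GRCm38, Col4a4 occupies chr1:82448423-82586849 on the minus strand and Col4a3 chr1:82586921-82722059 on the plus strand. Only 71 bases separate their annotated starts. Col8a1 occupies chr16:57624258-57754737 on the minus strand, and Col23a1 chr11:51289920-51583918 on the plus strand. Sequences are from the RefSeq promoter table of GRCm38.p6, which held 35 of the 44 members, with no entry for Col4a3. They are written on the strand of the named gene, and capitals mark GGGCGG or its reverse complement.
Between Col4a4 and Col4a3, chr1:82586850-82586920, minus strand: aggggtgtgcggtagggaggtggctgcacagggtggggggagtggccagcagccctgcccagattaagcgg
Before Col8a1, chr16:57754738-57754987, minus strand: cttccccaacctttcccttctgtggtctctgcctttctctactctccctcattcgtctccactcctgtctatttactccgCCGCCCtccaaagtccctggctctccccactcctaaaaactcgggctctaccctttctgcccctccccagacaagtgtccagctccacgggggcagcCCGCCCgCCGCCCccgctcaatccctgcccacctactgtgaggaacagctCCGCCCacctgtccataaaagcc
Before Col23a1, chr11:51289670-51289919, plus strand: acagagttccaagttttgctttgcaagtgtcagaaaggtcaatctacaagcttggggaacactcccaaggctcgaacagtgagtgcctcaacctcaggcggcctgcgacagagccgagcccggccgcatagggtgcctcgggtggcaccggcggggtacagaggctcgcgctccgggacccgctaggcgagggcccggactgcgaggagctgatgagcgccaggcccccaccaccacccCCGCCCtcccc

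The letters of 3 motifs were searched on both strands, namely TATAAA of the TATA box, the CCAAT of the CCAAT box, and the GC box, GGGCGG. None was found in the 71 bases between Col4a4 and Col4a3, which were 69.0% G or C. GGGCGG was found at 4 places before Col8a1 and at 1 before Col23a1, without TATAAA or CCAAT, at 60.8% and 66.0% G or C. Of 32851 RefSeq windows of 250 bases, 12.4% held TATAAA, 33.8% CCAAT and 32.7% GGGCGG, and their median was 52.4% G or C. These matches describe letters only. Col4a1 and Col4a2 are also head to head, on chr8, and their annotated starts overlap by 22 bases. The protocol keeps no strand, so reads within that overlap cannot be given to either gene.

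Of the 44 genes, 37 had at least 1 count in a kept well and 7 had none: Col6a4, Col6a5, Col9a3, Col11a1, Col13a1, Col24a1 and Col26a1. Another 14 stayed below 10 CPM in every sample. At or above 10 CPM in all 4 samples of their label were 11 members in Endothelial wells and 16 in DoubleNegative wells. Collagen made up 0.0910, 0.126, 0.154 and 0.109% of gene counts in the Endothelial samples of WT sort 1, WT sort 2, KO sort 1 and KO sort 2, and 1.15, 0.603, 1.27 and 0.736% in the DoubleNegative samples. Values of 4 samples are given in this order throughout. The lowest DoubleNegative sample was thus above the highest Endothelial sample. The make-up differed as well, since basement membrane chains were 48.6 to 59.5% of all collagen counts in Endothelial samples and 11.9 to 37.7% in DoubleNegative samples. Fibrillar chains were 23.97 to 34.0% and 45.6 to 69.0%, respectively. The median well had counts for 6 members in Endothelial wells and for 15 in DoubleNegative wells, and for 5 and 13 with every well thinned to 20000 counts.

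**Figure D1:**
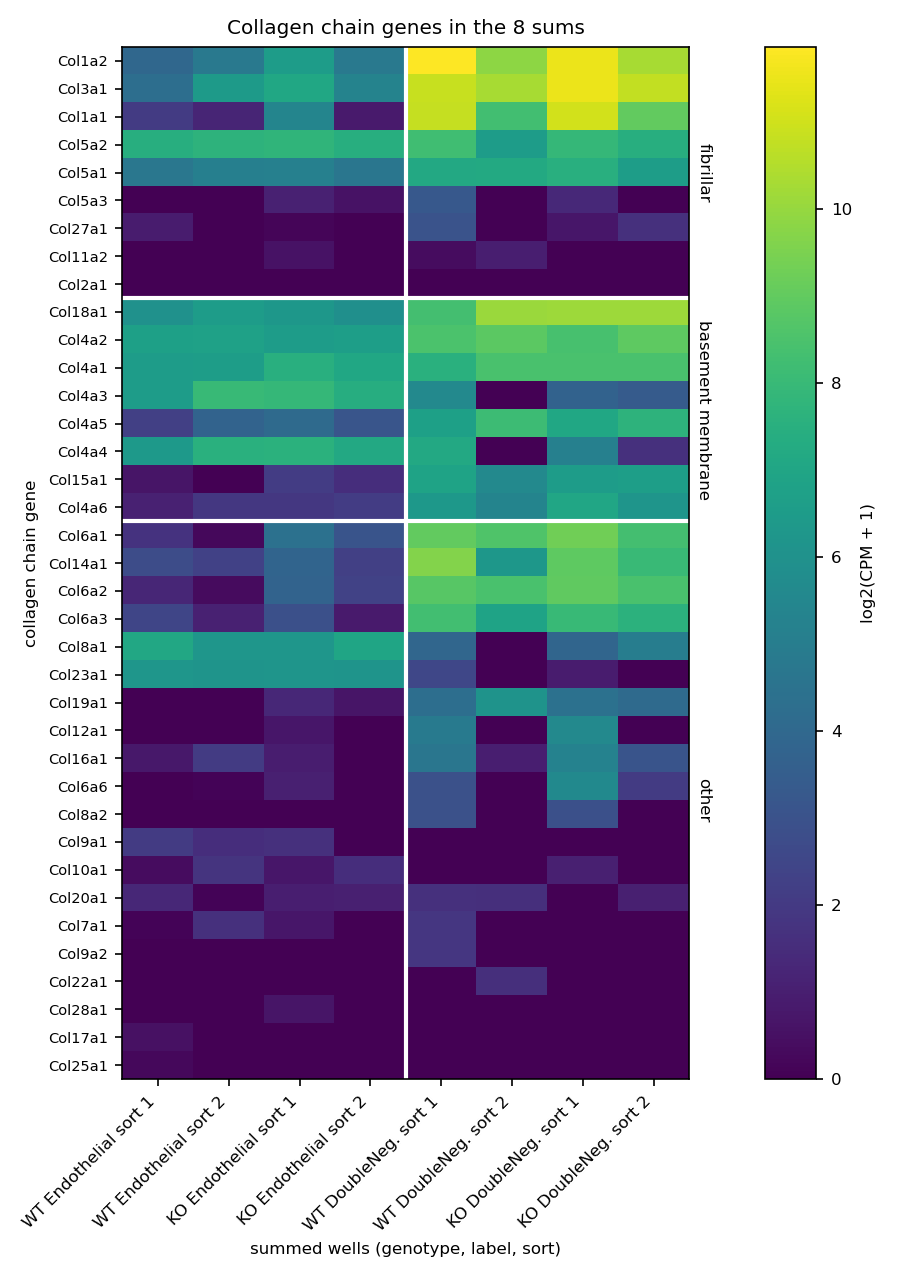
Level of the 37 collagen chain genes with a count (rows, by class) in the 8 summed samples (columns), as log2(CPM + 1). Col5a2 is at a like level in all columns, the upper fibrillar rows and the type VI rows are high in DoubleNegative columns, and Col23a1, Col8a1 and Col4a3 are high in Endothelial columns.

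Divided by transcript length, which allows genes to be compared, Col5a2 led in Endothelial samples at 28.8 ± 3.66 CPM per kb (mean ± SD, n = 4). It was followed by Col4a3 at 22.1 ± 8.52, Col8a1 at 20.2 ± 6.57, Col4a1 at 18.97 ± 6.07, Col4a2 at 15.8 ± 1.15, Col18a1 at 15.3 ± 3.30, Col4a4 at 14.8 ± 4.94, Col23a1 at 12.6 ± 0.476 and Col3a1 at 12.4 ± 9.15 CPM per kb. Each of these neighbours in the order differed by less than the larger of their SDs. In DoubleNegative samples the order per length was Col1a2 at 415 ± 251, Col3a1 at 354 ± 125, Col1a1 at 203 ± 156, Col18a1 at 190.0 ± 81.8, Col6a1 at 113 ± 32.4, Col6a2 at 104 ± 18.2, Col14a1 at 72.2 ± 55.8, Col4a2 at 63.9 ± 10.7 and Col4a1 at 47.1 ± 12.8 CPM per kb. Here too neighbours lay within the larger SD, apart from Col4a2 and Col4a1, and with the length of all annotated exons in place of the principal transcript the lead went to Col3a1.

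**Figure D2:**
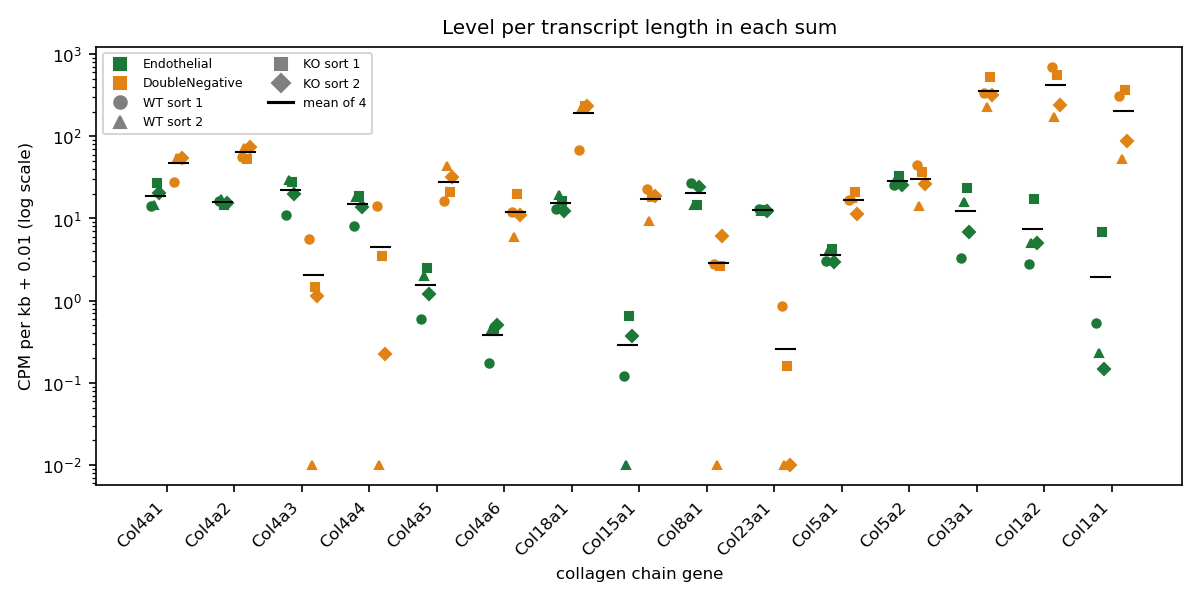
CPM per kb of transcript, plus 0.01, on a log axis for 15 members. Green points are the 4 Endothelial samples, orange points the 4 DoubleNegative samples, shapes give genotype and sort, and black bars are means. Endothelial and DoubleNegative points overlap for Col4a4 and Col5a2. The members were picked for display, and overlap was not counted over all genes.

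The first comparison asked which collagen genes differ between Cd31+ and Cd31- aortic cells. Of the 44 members, 21 passed the filter on low counts, and in edgeR's quasi-likelihood test 3 were higher and 16 lower in Endothelial wells. Among all 11579 genes tested, 9.57% were higher and 9.55% lower. The filter asked for a minimum level in at least 4 of the 8 samples. In their lower label, some members did not reach it in every sample. These were Col1a1, Col4a3, Col4a4, Col4a6, Col6a1, Col6a2, Col6a3, Col8a1, Col15a1, Col16a1, Col19a1 and Col23a1. Members that passed the filter only through the wells of a single label had to differ. The p-values between labels of the members named are therefore not read further. The same holds for the counts of 3 and 16 and the members' median log2 difference of -4.32 (all genes 0.04). Endothelial wells were then limited to endothelial-like clusters and DoubleNegative wells to the others. The fold changes of 7 members, as ratios, moved by more than 1.5 times away from no difference, and none moved towards it by as much. With their log2 differences, these were Col1a1 (-9.35 ± 1.61 SE), Col1a2 (-6.55 ± 0.63), Col6a1 (-7.63 ± 1.34), Col6a2 (-9.06 ± 1.16), Col6a3 (-7.43 ± 0.73), Col15a1 (-8.18 ± 0.68) and Col19a1 (-11.53 ± 1.02), whose values with all wells follow. Col19a1 then had 1 count in Endothelial samples, so its estimate depends on the prior count. Leaving out KO Endothelial sort 1 moved the fold changes of 6 of these 7 by more than 1.5 times too, away from no difference.

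**Figure D3:**
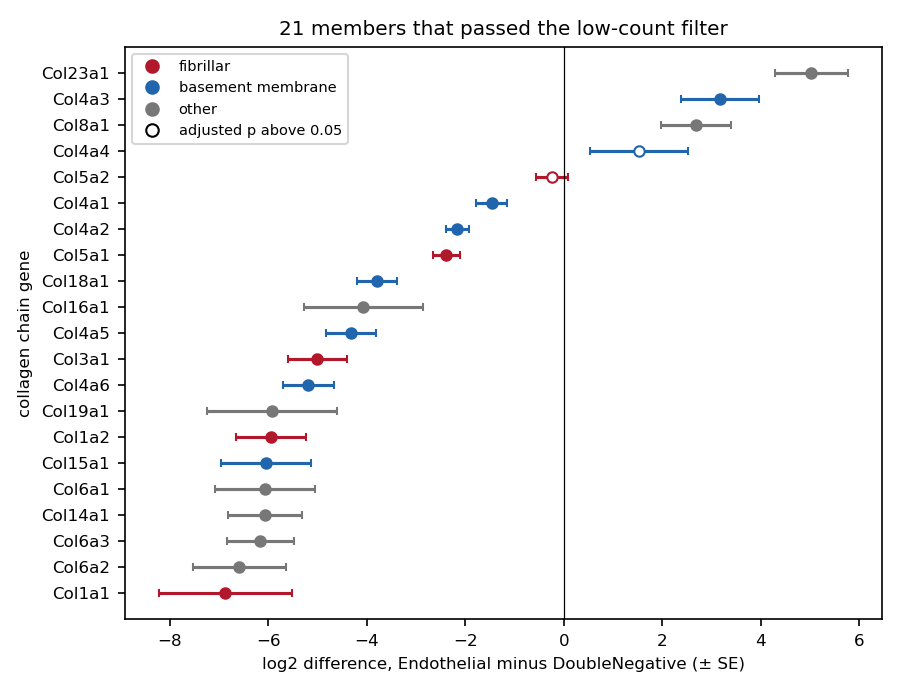
log2 difference between Endothelial and DoubleNegative samples with its SE for the 21 members that passed the low-count filter. Filled points had an adjusted p below 0.05, colours give the class. Only Col23a1, Col4a3 and Col8a1 are filled to the right of 0, and Col4a4 and Col5a2 are open.

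Among basement membrane chains, Col4a3 was the member called higher in Endothelial wells. Its product is the chain that carries the Goodpasture antigen. Col4a3 stood at 94.2, 251, 241 and 169 CPM in Endothelial and 47.8, 0, 12.4 and 9.72 CPM in DoubleNegative samples. Every Endothelial sample lay above every DoubleNegative one, with log2 difference 3.17 ± 0.79 SE, adjusted p = 0.0157. A count of 0 in DoubleNegative WT sort 2 allows up to 3.04 CPM. With that 0, Col4a3 needed Endothelial samples to pass the low-count filter, so this p-value is not read further. Its head-to-head neighbour Col4a4 stood at 82.6, 184, 191 and 140.5 CPM in Endothelial and 142, 0, 35.5 and 2.16 CPM in DoubleNegative samples. The WT sort 1 DoubleNegative sample, in which most wells were fibroblast-like, overlapped the Endothelial range, and the difference did not pass the test (log2 difference 1.53 ± 1.00 SE, adjusted p = 0.359). Without that sample it was 3.16 (adjusted p = 0.0333). With smooth muscle-like DoubleNegative wells only, a setting added after the values were seen, it was 3.30 (adjusted p = 0.0152). Per length, Col4a3 was at 1.35, 1.61, 1.49 and 1.42 times the level of Col4a4 in the Endothelial samples. In DoubleNegative sort 1 it was at 0.399 times in WT and 0.413 times in KO.

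The Col4a1 and Col4a2 chains, the common type IV pair, were present in both populations and lower in Endothelial wells. Col4a1 stood at 92.6, 96.1, 178 and 135 CPM in Endothelial and 184, 356, 351 and 355 CPM in DoubleNegative samples, with log2 difference -1.46 ± 0.31 SE, adjusted p = 0.00676. Col4a2 stood at 105, 110.3, 92.7 and 100.3 CPM and 363, 466, 343 and 477 CPM, with log2 difference -2.16 ± 0.23 SE, adjusted p = 1.12e-04. Neither overlapped between labels, and Col4a2 was the steadier of the pair in ECs. The pair's ratio per length, Col4a1 to Col4a2, was 0.864, 0.849, 1.88 and 1.31 in Endothelial and 0.496, 0.746, 0.998 and 0.726 in DoubleNegative samples. In Endothelial samples both KO values were thus above both WT values.

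Col4a5, the chain that joins Col4a3 and Col4a4 in their combined molecule, did not share their distribution. It stood at 3.80, 12.9, 16.3 and 7.79 CPM in Endothelial and 107, 281, 135 and 206 CPM in DoubleNegative samples (log2 difference -4.32 ± 0.50 SE, adjusted p = 1.93e-04). Col4a6 followed it, at 1.10, 2.82, 2.75 and 3.31 CPM and 79.7, 39.5, 131 and 72.3 CPM (log2 difference -5.19 ± 0.52 SE, adjusted p = 8.23e-05). For both, every Endothelial sample lay below every DoubleNegative sample. Per length, Col4a5 was at 0.0529, 0.0672, 0.0888 and 0.0605 times the level of Col4a3 in the Endothelial samples. In DoubleNegative samples with counts for both it was at 2.94 (WT sort 1), 14.3 and 27.8 times (KO sort 1 and sort 2).

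The remaining basement membrane members, Col18a1 and Col15a1, were both lower in Endothelial wells. Col18a1 stood at 63.0, 93.4, 77.9 and 58.6 CPM in Endothelial and 323, 1083, 1122 and 1113 CPM in DoubleNegative samples (log2 difference -3.79 ± 0.41 SE, adjusted p = 1.22e-04). The WT sort 1 DoubleNegative sample was the low one, and it held the 26 fibroblast-like wells. Col15a1 ranged from 0 to 3.35 CPM in Endothelial and from 47.6 to 118 CPM in DoubleNegative samples (log2 difference -6.05 ± 0.92 SE, adjusted p = 9.94e-04). It passed the low-count filter only through DoubleNegative wells, so this p-value is not read further.

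Fibrillar chains were led by types I and III in DoubleNegative wells. Col1a1 stood at 3.13, 1.32, 40.6 and 0.826 CPM in Endothelial and 1840.0, 309.7, 2139.9 and 514 CPM in DoubleNegative samples (log2 difference -6.87 ± 1.35 SE, adjusted p = 0.00444). Col1a2, the partner chain of type I, stood at 14.7, 27.1, 92.9 and 26.6 CPM and 3734, 916, 2956 and 1277 CPM (log2 difference -5.94 ± 0.71 SE, adjusted p = 2.27e-04). Col1a1 was thus at or below 3.13 CPM in all Endothelial samples but KO sort 1, while Col1a2 kept a level of at least 14.7 CPM in each. In endothelial-like wells alone, Col1a2 stood at 9.88, 24.7, 47.3 and 24.7 CPM. Col3a1, which forms type III fibres alone, stood at 18.5, 87.0, 132 and 38.2 CPM and 1889, 1276, 2932 and 1775 CPM (log2 difference -5.00 ± 0.59 SE, adjusted p = 2.15e-04). In endothelial-like wells alone Col3a1 stood at 10.9, 83.8, 76.0 and 35.3 CPM. DoubleNegative sort 1 samples, with 26 (WT) and 9 (KO) fibroblast-like wells, were the higher for all of these genes.

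Type V chains regulate fibril diameter, and its members behaved unequally. Col5a1 stood at 25.3, 34.3, 35.2 and 24.4 CPM in Endothelial and 141, 149, 177 and 94.99 CPM in DoubleNegative samples (log2 difference -2.38 ± 0.27 SE, adjusted p = 1.52e-04). Col5a2 stood at 171, 203, 219 and 171 CPM and 298, 94.1, 241 and 175 CPM, so the labels overlapped and the test found no difference (log2 difference -0.23 ± 0.32 SE, adjusted p = 0.703). Its 95% interval in the same fit ran from -0.94 to 0.47. The sign of this difference turned in 2 settings, to 0.015 without WT DoubleNegative sort 1 and to 0.28 with smooth muscle-like DoubleNegative wells only. Per length, Col5a1 was at 0.113 to 0.134 times the level of Col5a2 in the Endothelial samples, and at 0.372 to 1.25 times in DoubleNegative samples. Fibrillar members Col2a1, Col5a3, Col11a2 and Col27a1 stayed at or below 8.74 CPM in every sample.

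Among the other collagens, Col23a1 and Col8a1 were higher in Endothelial wells. Col23a1, a membrane-anchored collagen, stood at 74.6, 69.0, 72.5 and 69.3 CPM in Endothelial and 4.82, 0, 0.848 and 0 CPM in DoubleNegative samples. The 4 Endothelial values lay within 5.62 CPM of each other, far above the DoubleNegative ones (log2 difference 5.03 ± 0.73 SE, adjusted p = 7.94e-04). With no count in either DoubleNegative sort 2 sample, Col23a1 passed the low-count filter only through Endothelial wells, so this p-value is not read further. Col8a1 stood at 139, 74.0, 75.1 and 124 CPM and 14.2, 0, 13.6 and 31.3 CPM (log2 difference 2.68 ± 0.71 SE, adjusted p = 0.0212), again without overlap. With no count in WT DoubleNegative sort 2, Col8a1 needed Endothelial samples to pass the filter, so its p-value is not read further either. The call of Col8a1 did not hold with wells of 100000 counts or more (adjusted p = 0.0625). It was also lost without any 1 of 3 samples, namely KO DoubleNegative sort 1 (0.0542), KO Endothelial sort 2 (0.0612) and WT Endothelial sort 1 (0.0619). Without KO DoubleNegative sort 1, Col4a3 missed the threshold too (adjusted p = 0.0516), so 1 member was called higher in place of 3, beside 9.45% of all genes.

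Type VI chains were lower in Endothelial wells. Col6a1 stood at 2.33, 0.176, 20.7 and 7.44 CPM in Endothelial and 521, 389, 619 and 323 CPM in DoubleNegative samples (log2 difference -6.06 ± 1.02 SE, adjusted p = 0.00184). Col6a2 stood at 1.43, 0.265, 12.9 and 4.01 CPM and 438, 351, 497 and 349.7 CPM (log2 difference -6.59 ± 0.94 SE, adjusted p = 6.66e-04). Per length, Col6a1 was at 1.15, 1.07, 1.20 and 0.889 times the level of Col6a2 in DoubleNegative samples. Col6a3, the large type VI chain, stood at 4.58, 1.15, 6.51 and 0.826 CPM and 307, 117, 251 and 199 CPM (log2 difference -6.16 ± 0.68 SE, adjusted p = 1.31e-04). Col14a1, a fibril-surface collagen, stood at 5.76, 3.97, 13.4 and 3.78 CPM and 813, 77.9, 489 and 260.1 CPM (log2 difference -6.07 ± 0.75 SE, adjusted p = 2.93e-04). Col16a1 and Col19a1, related fibril-associated collagens, were lower too, with log2 differences of -4.07 ± 1.21 and -5.93 ± 1.32 (SE). Col16a1 overlapped between labels and lost its call with the sort and genotype as a block (adjusted p = 0.102), with wells of 100000 counts or more (0.0844) and with smooth muscle-like DoubleNegative wells only (0.0959). It was also lost without any 1 of 5 samples, at adjusted p = 0.105 (KO DoubleNegative sort 1), 0.0614 (WT DoubleNegative sort 1), 0.104 and 0.0657 (KO Endothelial sort 1 and sort 2) and 0.110 (WT Endothelial sort 1).

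The share of wells with at least 1 count followed the levels. Col4a3 was counted in 62.7% of the 676 Endothelial wells (95% exact interval 59.0 to 66.4) and 22.2% of the 108 DoubleNegative wells (14.8 to 31.2). Col23a1 was counted in 46.6% (42.8 to 50.4) and 6.48% (2.65 to 12.9), and Col8a1 in 38.0% (34.3 to 41.8) and 12.0% (6.57 to 19.7). After thinning to 20000 counts these shares were 54.0 and 13.9% for Col4a3, 35.1 and 1.85% for Col23a1 and 30.6 and 6.48% for Col8a1. Median depth was 159625 gene counts in Endothelial and 117926 in DoubleNegative wells. As the protocol has no molecular identifiers, these intervals cover counting error only. Col5a2 was counted in 80.6 and 82.4% of wells, and Col1a1 in 3.40 and 99.1%.

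Within DoubleNegative wells the collagens were split between the fibroblast-like and smooth muscle-like wells. These levels are a description, since wells of 1 sort are not replicates and only sort 1 held more than 1 fibroblast-like well per genotype. In sort 1, fibroblast-like wells of WT and KO had 2748 and 7381 CPM for Col1a1, 2427 and 8145 CPM for Col3a1 and 1233 and 1928 CPM for Col14a1. Smooth muscle-like wells of the same samples had 316 and 562 CPM for Col1a1, 985 and 1362 CPM for Col3a1 and 108 and 55.3 CPM for Col14a1. The fibrillar chains and Col14a1 were thus the higher in fibroblast-like wells. Col18a1 went the other way, at 40.9 and 68.2 CPM in fibroblast-like and 796 and 1439.5 CPM in smooth muscle-like wells. So did Col4a2, at 232 and 119 CPM and 581 and 410.2 CPM. Col19a1 had no count in fibroblast-like wells of these samples and 50.1 and 26.6 CPM in smooth muscle-like wells. Basement membrane chains were 37.1 to 42.3% of collagen counts in the 4 smooth muscle-like groups of DoubleNegative wells and 2.84 and 6.43% in the fibroblast-like groups. Col4a4 stood at 203 and 115 CPM in fibroblast-like wells, and had a count in 25 of 37 fibroblast-like and 9 of 70 smooth muscle-like DoubleNegative wells. Col4a3 was counted in 16 and 8 of them.

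**Figure D4:**
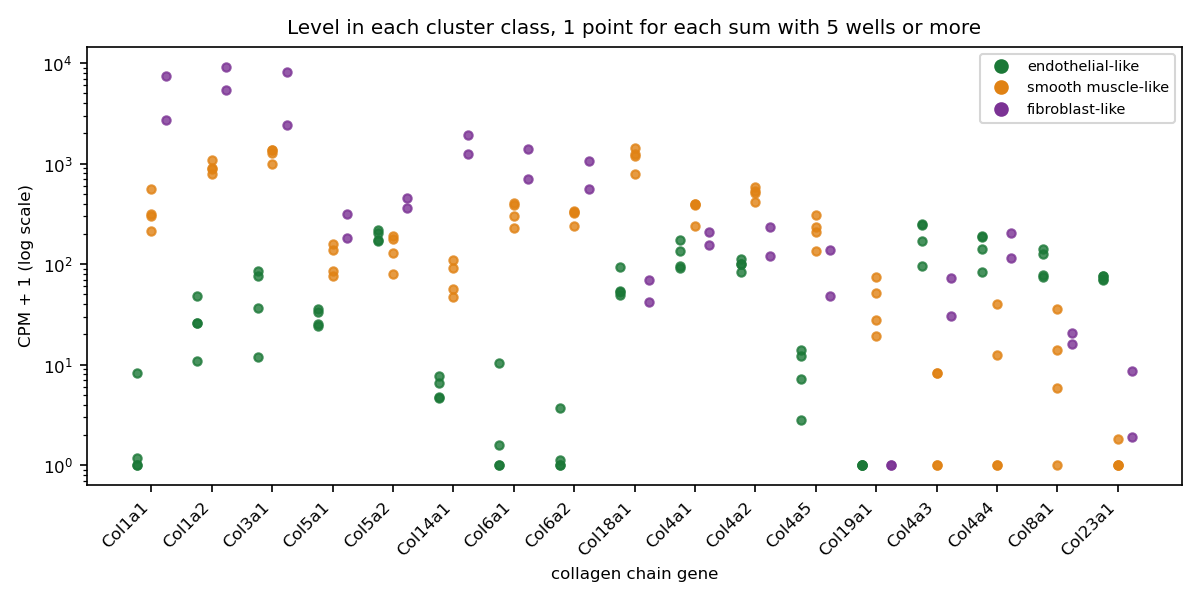
CPM plus 1 on a log axis for 17 members, with 1 point for each sample and cluster class of 5 wells or more. Endothelial-like points come from Endothelial samples, the others from DoubleNegative samples. Types I, III, VI and XIV are highest in fibroblast-like wells, Col18a1, Col4a2 and Col19a1 in smooth muscle-like wells, and Col23a1 and Col8a1 in endothelial-like wells.

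The endothelial-like clusters differed in the members that ECs carried most. The largest cluster, 254 Endothelial wells led by G0s2, Aldh3a1 and Dpep2, had Col4a3 at 313 CPM and Col8a1 at 29.4 CPM. The cluster of 196 wells led by Tbx1, P4ha3 and Nt5e had 161 CPM of Col4a3 and 167 CPM of Col8a1. Col8a1 was higher in the latter in each of the 4 samples, at 254, 164, 149 and 204 against 0, 21.8, 31.9 and 29.9 CPM. For Col4a3 the values were 116, 159, 175 and 107 against 316, 307, 317 and 258 CPM, lower in each sample. The 33 wells led by Htr2b, Ackr1 and Lrg1 and the 22 wells led by Ssu2, Hapln1 and Tmem178 held little or no Col4a3, at 0 and 4.02 CPM, and no count of Col4a4. The latter cluster had 309 CPM of Col18a1, and no count of Col23a1, compared with 41.4 and 66.2 CPM in the largest cluster. Collagen genes were left out of the clustering, and these levels carry no test.

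Across endothelial-like wells, Col4a3 was counted in 76.2% of wells with a Col4a4 count and in 34.3% of wells without. After thinning the shares were 68.2 and 36.3%. For Col4a1 in wells with and without Col4a2 they were 83.8 and 59.5%, or 65.8 and 51.6% after thinning. Such shares rise together with depth, clusters and samples, which the 660 wells share, so they are given with no test.

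The second comparison asked whether loss of Amotl2 in ECs went with a change in collagen expression. In Endothelial wells, 26 members passed the filter and edgeR's quasi-likelihood test called none of them between KO and WT, as it called 0.0% of all 12702 genes. The EYFP reporter was not called by this test either (log2 difference 6.00 ± 0.64 SE, adjusted p = 0.0596). A lack of calls therefore does not show a lack of difference. DESeq2 called none of 28 members either, and 0.412% of all genes. At an unadjusted p below 0.05 stood 7 members, all higher in KO, which were Col6a1, Col6a2, Col19a1, Col4a1, Col1a2, Col5a3 and Col1a1, against 3.68% of all genes. The members with the smallest p were Col6a1 (3.39 ± 1.06), Col6a2 (3.23 ± 1.09) and Col19a1 (8.37 ± 2.78). Their adjusted p was 0.9995, and Col19a1 had no count in WT, so that its estimate depends on the prior count. The median log2 difference was 0.31 over the 26 members and 0.00 over all genes.

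Few wells held a large part of the counts of several of these members. In KO sort 1, 9 of 302 Endothelial wells lay in the smooth muscle-like or fibroblast-like cluster. Those 9 wells held 56.3% of the Col6a1 counts of that sample, 80.03% of Col6a2, 82.5% of Col1a1, 50.6% of Col1a2 and 99.3% of Col19a1. In KO sort 2, 2 such wells of 89 held every count of Col6a1, Col6a2, Col1a1 and Col19a1. A single endothelial-like well held 81.7% of the Col5a3 counts of KO sort 1, and Col5a3 had no count in WT. With Endothelial wells outside the endothelial-like clusters left out, 3 of 22 members stood at an unadjusted p below 0.05, against 3.79% of all genes. They were Col4a1 and Col5a3, higher in KO, and Col16a1, lower in KO. Col6a1 then stood at 0.584, 0, 9.31 and 0 CPM and Col1a1 at 0.178, 0, 7.34 and 0 CPM.

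Col4a1 kept its difference in endothelial-like wells. Its level was 90.3, 95.1, 174 and 134 CPM, against 92.6, 96.1, 178 and 135 CPM with all Endothelial wells, and the log2 difference was 0.73 ± 0.26 in both (SE, adjusted p = 0.999 in the endothelial-like wells). The value did not pass the adjusted test in either. In DoubleNegative wells the log2 difference of Col4a1 between KO and WT was 0.41 ± 0.51 SE, and the genotypes overlapped. The interaction estimate was 0.31 ± 0.56 SE, and it was not called. Of the other members abundant in ECs, Col4a2 (-0.14 ± 0.26) was lower in both KO samples than in both WT samples, by less than its SE, and 6 overlapped between genotypes, with Col4a3 (0.23 ± 0.42), Col4a4 (0.30 ± 0.37), Col5a2 (0.06 ± 0.26), Col8a1 (-0.06 ± 0.39), Col18a1 (-0.20 ± 0.30) and Col23a1 (-0.01 ± 0.27). Col4a3 and Col4a4 were lowest in WT sort 1, in which 154 of the 230 endothelial-like wells belonged to the cluster led by Cd74, with 87.1 CPM of Col4a3. Without WT sort 2, 4 members were called higher in KO (Col1a1, Col1a2, Col3a1 and Col4a3), and 1.59% of all genes were called. Without WT sort 1 there were 3 (Col1a1, Col6a1 and Col6a2), and 2.47% of all genes. Without KO sort 2 there was Col1a1, and 0.252% of all genes. The part of plate and cluster make-up in these values was not tested.

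**Figure D5:**
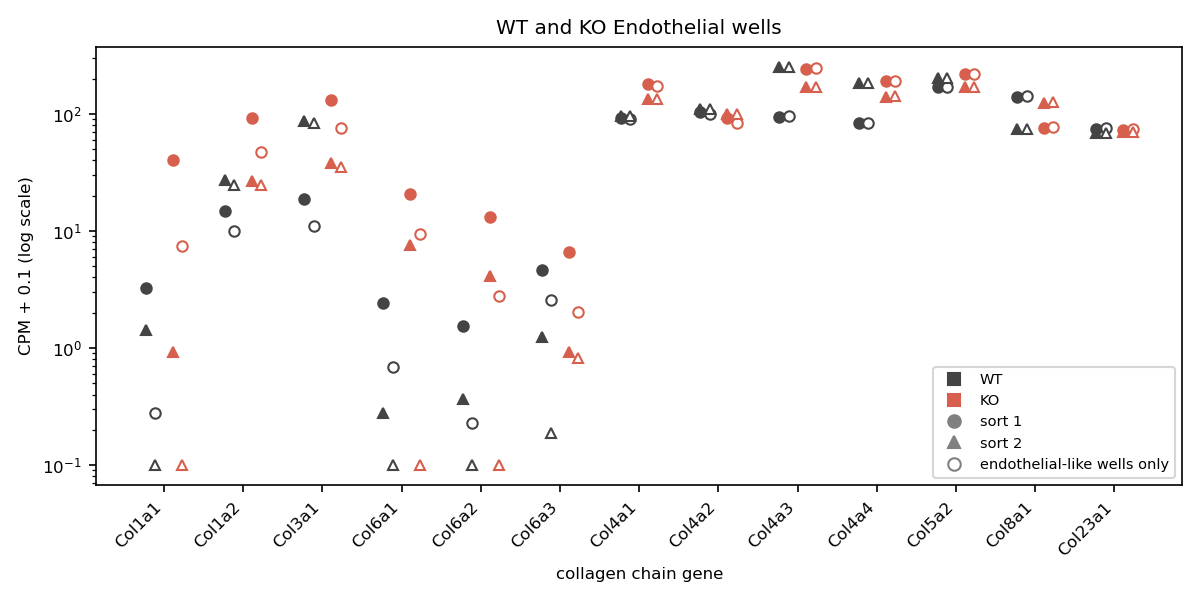
CPM plus 0.1 on a log axis in the Endothelial samples of WT (grey) and KO (red) for 13 members. Filled points use all Endothelial wells, open points those in endothelial-like clusters, circles are sort 1 and triangles sort 2. Type I and VI chains fall when other wells are left out, while Col4a1 is higher in both KO samples either way.

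In DoubleNegative wells, 23 members passed the filter, and none was called between KO and WT by edgeR (0.0% of 10544 genes) or by DESeq2, which called 0.0601% of all genes. None of the 23 stood at an unadjusted p below 0.05, as 2.61% of all genes did. The smallest p belonged to Col6a6, a further type VI chain, at 6.78, 0, 48.4 and 3.24 CPM (2.73 ± 1.67), Col19a1 at 18.7, 66.8, 20.5 and 16.2 CPM (-1.17 ± 0.88) and Col4a6 (0.76 ± 0.61). Col6a6 was high in KO sort 1 alone, and the genotypes overlapped for Col19a1. The fibroblast-like share differed between the genotypes in sort 1, 61.9% of 42 WT wells and 22.5% of 40 KO wells. Without WT sort 2, 1 member was called, Col4a4, at a log2 difference of -2.79 (adjusted p = 0.0456), and 0.669% of all genes were.

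The KO effect was also compared between Endothelial and DoubleNegative wells with an interaction term, for which 30 members passed the filter. None was called by edgeR (0.0% of 12729 genes), and 4 stood at an unadjusted p below 0.05, which were Col19a1, Col6a2, Col6a1 and Col5a3 (5.16% of all genes). DESeq2 called 1 of 26 members, Col19a1, and 0.404% of all genes. The largest estimate among the 3 members with the smallest p was that of Col19a1, at 8.70 ± 1.83, followed by Col6a1 (3.26 ± 1.18) and Col6a2 (3.04 ± 0.97). Col19a1 had no count in either WT Endothelial sample and 144 counts in KO, of which 143 lay in smooth muscle-like or fibroblast-like wells.

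The third comparison set sort 2 against sort 1. The sort 2 wells of both genotypes lay on a plate of their own, so effects of sort and of plate cannot be told apart. In Endothelial wells none of 26 members was called by edgeR (0.0% of all genes), 2 stood at an unadjusted p below 0.05 (7.82% of all genes) and DESeq2 called 1, Col1a1 (0.982% of all genes). Those 2 were Col1a1 (-4.19 ± 1.13) and Col6a3 (-2.36 ± 0.92), and next in order came Col10a1, a short-chain collagen, at 0.325, 2.47, 0.664 and 1.89 CPM (2.25 ± 1.26). The difference of Col6a3 turned to 0.052 with wells thinned to 20000 counts. Wells outside the endothelial-like clusters held 94.4 and 82.5% of the Col1a1 counts in sort 1 of WT and KO and every such count in sort 2.

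In DoubleNegative wells none of 23 members was called between sorts by edgeR, which called 0.019% of all genes, but 9 stood at an unadjusted p below 0.05, against 7.84% of all genes. With genotype as a covariate, 1 member was called, Col1a1 (0.275% of all genes). Col1a1 was also called without WT sort 1 (0.116% of all genes). Without KO sort 1, Col1a1, Col1a2 and Col4a4 were called lower and Col18a1 higher in sort 2 (0.957% of all genes). Of the 9, 8 were lower in sort 2, and DESeq2 called 4 of 24, Col1a1, Col1a2, Col4a4 and Col12a1 (0.987% of all genes). Col1a1 (-2.22 ± 0.40) and Col4a4 (-6.33 ± 1.27) had the smallest p, followed by Col12a1, a fibril-associated collagen, at 27.9, 0, 46.8 and 0 CPM, with no count in sort 2. The fibroblast-like wells were 35 of 82 in sort 1 and 2 of 26 in sort 2. With smooth muscle-like wells only, 2 of 21 members stood at an unadjusted p below 0.05 (5.62% of all genes), Col4a4 and Col12a1, and the log2 difference of Col1a1 was -0.70 ± 0.36 (SE, adjusted p = 0.902).

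The genes that make and mature collagen were taken as lists of 33 genes in all. Between the labels, 27 of them could be tested, 1 was higher and 10 lower in Endothelial wells, beside 9.57% and 9.55% of all genes. Among hydroxylating enzymes 3 of 12 were lower, P3h2 (-3.93 ± 0.84), Plod2 (-2.21 ± 0.39) and P3h4 (-1.54 ± 0.40). Of 4 folding and export genes tested 1 was lower, Serpinh1, the collagen chaperone Hsp47 (-2.63 ± 0.74). Of 5 genes for propeptide removal 3 were lower, the N-proteinase Adamts2 (-6.43 ± 1.05), the procollagen C-proteinase enhancer Pcolce (-5.10 ± 0.85) and the C-proteinase Bmp1 (-1.86 ± 0.47). All 5 cross-linking oxidases could be tested, and 3 were lower, Loxl1 (-5.02 ± 0.47), Loxl2 (-4.57 ± 0.71) and Loxl3 (-3.68 ± 0.66). Lox, named after its values were seen, was higher (0.76 ± 0.23), at 361, 459, 401 and 442 CPM in Endothelial and 292, 204, 202 and 193 CPM in DoubleNegative samples. Of 5 collagen receptors tested, 2 were lower, the discoidin receptor Ddr2 (-5.27 ± 0.64) and the endocytic receptor Mrc2 (-4.12 ± 0.70). The 1 glycosylating enzyme tested was not called. In the comparisons of genotypes and sorts and in the interaction no gene of these lists was called by edgeR, and 16 of 174 results stood at an unadjusted p below 0.05, where all genes gave 2.61 to 7.84% by comparison. DESeq2 called 3, Adamts2, Pcolce and Pcolce2, all lower in sort 2 than in sort 1 in DoubleNegative wells, beside 0.987% of all genes. Fibroblast-like wells were 35 of 82 in sort 1 and 2 of 26 in sort 2 there, and their part in these calls was not tested.

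The members not described above were scarce. Col9a1 had 352 counts in Endothelial samples, in 16 of 676 wells, and none in DoubleNegative wells, where 0 of 108, by a limit of 3 wells, allows a share of wells with a count of up to 2.78%. Col7a1, Col8a2, Col9a2, Col17a1, Col20a1, Col22a1, Col25a1 and Col28a1 stayed at or below 6.78 CPM in every sample.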

How the data were processed

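Single aortic cells were sorted into wells and read with Smart-seq2. The authors used STAR 2.7.7a for alignment to GRCm38, to which ERCC spike-ins and the EYFP reporter had been added, Picard 2.22.0 to remove duplicates and HTSeq 0.9.1 for the counts. The annotation release is not given in the sources used here. The deposited values are raw counts of reads without molecular identifiers, and duplicate removal can compress high genes. Spike-ins (1.25% of counts) and summary lines of HTSeq (46.9%) entered neither library sizes nor tests. All 1024 wells had a label for genotype, gate and sort.

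Here, wells with at least 20000 gene counts and 500 genes were kept, as in the study. No doublet caller was run on sorted single cells. Clusters were built in Seurat 5.3.0 with collagen genes left out, and named from marker lists without collagens. Counts were summed per genotype, label and sort and tested (two-sided) with edgeR 4.0.16 (TMM, filterByExpr, glmQLFit and glmQLFTest, Benjamini-Hochberg over all genes tested, threshold 0.05). DESeq2 1.42.0 was the alternative, in R 4.3.3. Fold changes are log2, with the SE from the statistic. Lengths and coordinates came from GENCODE M21 (GRCm38), which held 95.7% of the symbols, and levels per kb used the principal transcript. Intervals of shares are exact binomial.

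The labels tie Endothelial and DoubleNegative wells of 1 genotype to the same sort, hence to the same pool of mice, so fits with blocks were tried. After removal of group means, such samples correlated by 0.0400 to 0.119 between labels. Between genotypes, samples of the same sort correlated by 0.115 in Endothelial and 0.0973 in DoubleNegative wells.

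Members, lists and tests were chosen with earlier results of these data known. Given in full were the 4 members of each class with the highest level per length in each label, members called between genotypes or sorts or, with none called, the 3 with the smallest p. Of the lists, up to 3 called members were given, and Lox beside those of its list. The fits were also run on simulated counts, which varied less between samples than these data. Those runs therefore do not show how well real changes are recovered here.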

Additional observations from a re-analysis of the deposited data

Results flagged for a closer look

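Among 48 sets of 4 samples, 1 sample stood far from the other 3 by Dixon's test in 9. For independent and normally distributed values, chance would single out about 1 set in 20. The CPM here hold zeros and come from the same samples, so the 9 are not set against that rate. In Endothelial wells each sample so flagged was KO sort 1, the deepest sample. Col1a1 stood at 40.6 CPM there against 0.826 to 3.13 CPM in the others, and Col1a2 at 92.9 CPM against 14.7 to 27.1 CPM. Col6a6 stood at 1.04 CPM against 0 to 0.0882 CPM, and 1 well held 99.0% of those counts. Col12a1 stood at 0.653 CPM with no count elsewhere, and 98.4% of its counts lay in the 9 wells outside the endothelial-like clusters.

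In DoubleNegative wells, WT sort 1 was low in Col18a1, at 323 CPM against 1083 to 1122 CPM, and in Col4a1, at 184 CPM against 351 to 356 CPM. In that sample 26 of 42 wells were fibroblast-like. WT sort 2 was high in Col19a1, at 66.8 CPM against 16.2 to 20.5 CPM. KO sort 1 was high in Col6a6, at 48.4 CPM against 0 to 6.78 CPM, and in Col10a1, at 1.06 CPM with no count elsewhere. A count of 0 allows up to 3.24 CPM in KO sort 2 and 3.04 CPM in WT sort 2, so the value of Col10a1 cannot be told from those samples.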

How the results depend on the processing

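How many members were called between labels is not read further, and 1 was higher without KO DoubleNegative sort 1, beside 9.45% of all genes. Leaving out 1 sample gave 1 to 4 members higher and 15 to 17 lower in Endothelial wells. With all samples it was 3 and 16, beside 9.57% and 9.55% of all genes. Between genotypes or between sorts, leaving out 1 sample leaves a lone sample in a group. Such a fit assumes that a lone sample varies like the others. With no filter on low counts, 3 members (0.643% of all genes) were called between genotypes and 1 (1.33%) between sorts in Endothelial wells, 5 (1.43%) between sorts in DoubleNegative wells and 4 (0.979%) in the interaction. Over all genes, edgeR and DESeq2 called 0 and 55 between genotypes in Endothelial and 0 and 7 in DoubleNegative wells, 0 and 128 and 2 and 107 between sorts, and 0 and 49 in the interaction. Of the members, DESeq2 called 1 between sorts in Endothelial wells, 4 in DoubleNegative wells and 1 in the interaction. With the pairing of sort and genotype as a replicate block, 3 members were higher and 15 lower between labels, beside 16.1% of all genes called. Col16a1 lost its call, and 0 members were called between genotypes or in the interaction. Genotype as a covariate gave 1 member between sorts in DoubleNegative wells, and the block changed no other count of calls. Of the single-member values followed through the settings, 3 turned sign. Values outside that set turned too. Col3a1 between sorts in Endothelial wells went from -0.13 to 0.57 with endothelial-like wells only. Col14a1 between genotypes in DoubleNegative wells went from -0.27 to 0.49 with the block. Col5a2 between labels ranged from -0.45 to 0.015 with 1 sample left out, the latter without WT DoubleNegative sort 1, and stood at 0.28 with smooth muscle-like DoubleNegative wells only, a setting chosen after seeing the data. Col6a3 between sorts in Endothelial wells went to 0.052 after thinning. The cause was not tested. Fold changes between labels, as ratios, moved by over 1.5 times for 13 members with smooth muscle-like DoubleNegative wells only. Of these, 11 moved away from no difference. With the block 9 moved, 9 of them away from it, and after thinning 6 moved, 5 of them towards it. Thinning or asking for 5 counts moved 17 of 18 shares of Endothelial wells and 6 of 18 of DoubleNegative wells beyond their intervals. In DoubleNegative sort 2, a count of 0 allowed up to 3.24 CPM in KO and 3.04 CPM in WT, so lower levels were not detectable there.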
